A study of Homo sapiens with 4 samples.

Results

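The genes described here are 10 regulators and products of the epithelial-mesenchymal transition (EMT), taken from a given list by matching its symbols to the gene tables of the study. They are the transcription factor genes ZEB1, ZEB2, SNAI1, SNAI2 and TWIST1, the mesenchymal product genes VIM and FN1, and the epithelial gatekeeper genes OVOL1, OVOL2 and GRHL2. All 10 were found among the 60675 genes of the tables, and 8 had enough reads to be tested. RNA came from MM134 cells, an established estrogen receptor positive line from an invasive lobular breast carcinoma. The HER2 L755S line carries a kinase domain substitution in the receptor that ERBB2 encodes, and the HER2 WT line carries the unaltered receptor. Each line was sampled in 2 libraries numbered 1 and 2, and all 4 libraries came from cells kept without estrogen for 7 days in phenol red free medium with 5% charcoal-stripped serum. No library with estrogen is among them. The sources used here do not state how HER2 was introduced, whether a line is 1 clone, or whether the libraries of a line are separate cultures. All p-values below thus rest on the spread between 2 libraries of a line, with information on spread shared across genes, and that spread may be technical. In bulk RNA, fewer cells of a kind and less RNA per cell cannot be told apart.

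In EMT, epithelial cells loosen their junctions and take on a motile, mesenchymal form. ZEB, SNAI and TWIST factors drive this change, largely by binding E-box motifs and repressing epithelial genes such as CDH1, while vimentin and fibronectin are classical products of the mesenchymal state. GRHL2 and the OVOL factors hold the epithelial state, GRHL2 by activating junction genes and the OVOL factors by repressing EMT factor genes such as ZEB1. Lobular carcinoma is known for loss of E-cadherin adhesion without a full switch to a mesenchymal form.

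The libraries held between 27423247 and 31088422 expected counts. Mitochondrial transcripts took 4.03% and 13.5% of the counts in HER2 L755S 1 and 2, and 4.40% and 8.83% in HER2 WT 1 and 2. ERBB2 itself had 2443 and 1203 CPM (counts relative to the scaled library total) in HER2 L755S 1 and 2 and 1934 and 1936 CPM in HER2 WT 1 and 2, so the lines overlapped. The 12 luminal markers summed to 8326.8 and 6350.5 TPM in HER2 L755S and 8941.3 and 7992.3 TPM in HER2 WT libraries. The keratin gene KRT19 had 2674 TPM or more. Of 11 tested, 5 had a positive and 6 a negative log2 fold change. PGR had 2 and 0 counts in HER2 L755S and 7 and 16 in HER2 WT libraries. ESR1 had 64.7 and 122 CPM in HER2 L755S and 176 and 282 CPM in HER2 WT libraries (edgeR, Benjamini-Hochberg adjusted p = 0.148). The 5 with a positive value were XBP1, GATA3, FOXA1, MLPH and TFF1. XBP1 had 2695 and 2308 CPM in HER2 L755S and 1589 and 1625 CPM in HER2 WT libraries. Its log2 fold change was 0.64 (edgeR, Benjamini-Hochberg adjusted p = 0.446). At an unadjusted edgeR p under 0.05, 1 of the 11 was higher (XBP1) and 1 lower (ESR1), beside 10.5% of all tested genes. PGR, ESR1 and these 5 genes were named after their values were seen. TPM is a relative unit that is also corrected for transcript length. The 10 leukocyte markers summed to 0.78 and 0.02 TPM in HER2 L755S libraries and 1.19 and 0.65 TPM in HER2 WT libraries, with CD3D, CD3E and MS4A1 at 0 in all 4. The 10 fibroblast and endothelial markers summed to 1.39 and 1.14 TPM in HER2 L755S libraries and 1.63 and 4.99 TPM in HER2 WT libraries, with PECAM1 and CDH5 at 0. The 10 basal and myoepithelial markers summed to 4.20 and 2.44 TPM in HER2 L755S libraries and 4.05 and 3.13 TPM in HER2 WT libraries; MYLK and OXTR had 78 to 193 counts, and KRT5 and KRT14 at most 3.

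Of the 5 EMT factors only TWIST1 was well expressed, and VIM and FN1 transcripts were present in the same libraries as those of the gatekeepers GRHL2 and OVOL2. None of the 8 tested genes differed between the lines past the threshold, an adjusted p of 0.05. Of all 16538 tested genes, 1.69% did so in either direction, so the absence of a call among 8 does not set them apart. With edgeR, 1 of the 8 (SNAI1) had an unadjusted p under 0.05, as had 10.5% of all tested genes. The same count was 1 with limma-voom and 0 with DESeq2, and neither tool called a member after adjustment. The log2 fold change furthest from 0 among the 8 was that of SNAI1, at -1.58 (95% interval -2.94 to -0.21). FN1 was the only tested gene with a positive log2 fold change, at 0.48.

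**Figure D1:**
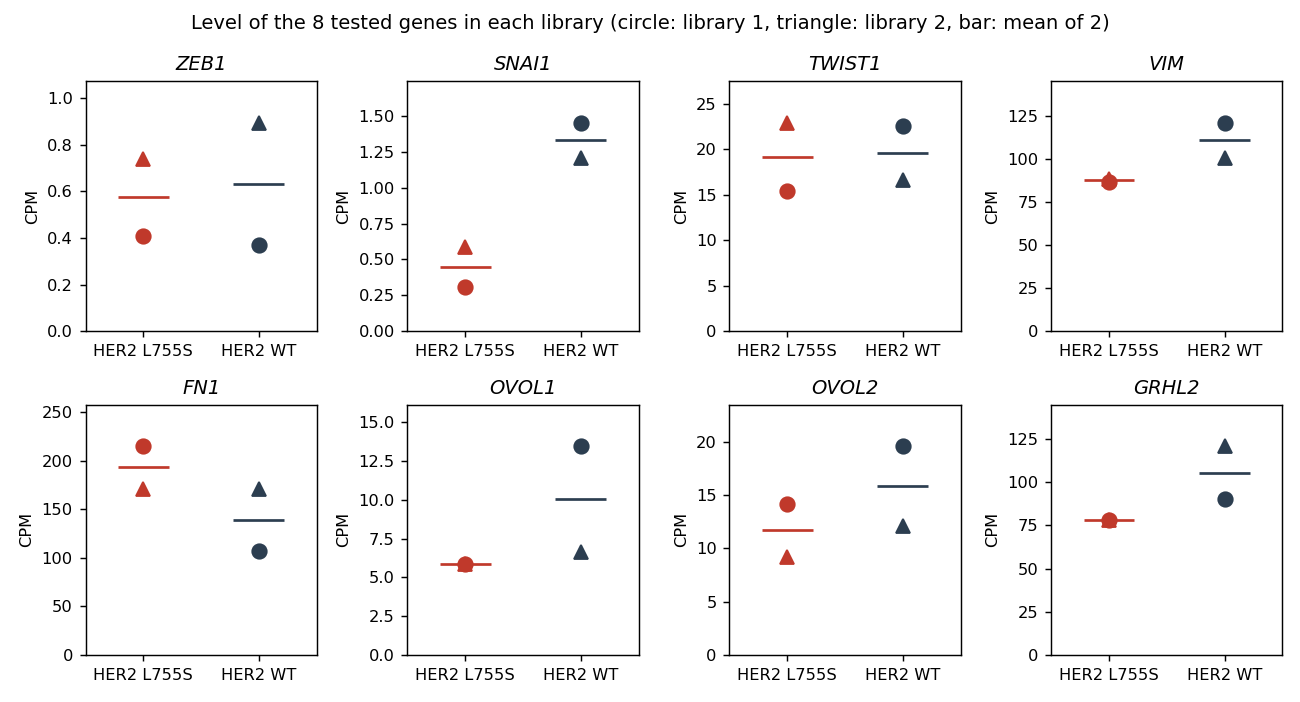
CPM of the 8 tested genes, with HER2 L755S on the left and HER2 WT on the right of each panel; circles are library 1, triangles library 2 and bars the mean of 2 libraries. SNAI1 lies at 0.308 and 0.584 CPM in HER2 L755S, below 1.45 and 1.21 CPM in HER2 WT, and the TWIST1 values of the lines overlap.

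Ordered by mean TPM over the 4 libraries, VIM came first at 74.0, followed by FN1 at 70.3, GRHL2 at 23.6, TWIST1 at 20.9, OVOL2 at 17.4, OVOL1 at 3.60, SNAI1 at 0.755 and ZEB1 at 0.290. ZEB2 and SNAI2 were at 0 in every library. The library values of VIM and FN1 overlapped, as did those of GRHL2 and TWIST1, of TWIST1 and OVOL2, and of SNAI1 and ZEB1. The values of FN1 did not overlap those of GRHL2, nor those of OVOL2 those of OVOL1, nor those of OVOL1 those of SNAI1.

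ZEB1 (ENSG00000148516, GRCh38 chromosome 10, 31318495 to 31529814), a zinc finger repressor of epithelial genes, was close to the detection limit. It had 12 and 19 counts in HER2 L755S 1 and 2 and 12 and 26 counts in HER2 WT 1 and 2, or 0.410 and 0.740 CPM against 0.371 and 0.895 CPM. The lines overlapped, and the number 2 library was the higher one in each. The log2 fold change was -0.14 (95% interval -1.67 to 1.39; edgeR, Benjamini-Hochberg adjusted p = 0.998), which leaves room for a fold between 0.315 and 2.62. Its sign turned without HER2 L755S 1 (0.23) and without HER2 WT 2 (0.64). The antisense gene ZEB1-AS1, which overlaps ZEB1 on the other strand, carried more reads than ZEB1 itself, with 207 and 292 counts in HER2 L755S libraries and 249 and 180 counts in HER2 WT libraries. Its log2 fold change was 0.41 (edgeR, Benjamini-Hochberg adjusted p = 0.928). No strand setting is stated for the counting, so reads from where ZEB1 and ZEB1-AS1 overlap cannot be told apart.

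Transcripts of ZEB2 (ENSG00000169554, chromosome 2, 144364364 to 144524583), the paralog of ZEB1, had 0 counts in all 4 libraries, as had those of SNAI2 (ENSG00000019549, chromosome 8, 48917604 to 48921740), which encodes Slug. A count of 0 allows up to 3 counts, or 0.103 and 0.117 CPM in HER2 L755S 1 and 2 and 0.0927 and 0.103 CPM in HER2 WT 1 and 2. These limits cover counting error only. ZEB2-AS1, the antisense neighbour of ZEB2, was also at 0 in each library. Neither gene could be tested.

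SNAI1 (ENSG00000124216, chromosome 20, 49982999 to 49988886) encodes Snail, a direct repressor of CDH1. It had 9 and 15 counts in HER2 L755S 1 and 2, against 47 and 35 counts in HER2 WT 1 and 2. This corresponds to 0.308 and 0.584 CPM in HER2 L755S and 1.45 and 1.21 CPM in HER2 WT libraries, and the lines did not overlap. In TPM it averaged 0.335 ± 0.0919 in HER2 L755S and 1.18 ± 0.191 in HER2 WT cells (SD, n = 2 each). The ratio of the summed counts, HER2 L755S over HER2 WT, was 0.327 after scaling, with a 95% interval from 0.199 to 0.521 that covers counting error only. Within number 1 the log2 difference was -2.18 and within number 2 it was -1.02. In the fit of all genes, which also takes in the spread between libraries, SNAI1 had an unadjusted p of 0.0276 and missed the threshold (edgeR, Benjamini-Hochberg adjusted p = 0.35). Its log2 fold change was -1.18 when HER2 L755S 1 was left out and -2.10 when HER2 L755S 2 was left out. The only transcript of SNAI1 in the tables has 1686 bases, and no annotated gene overlaps the locus.

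CDH1, the E-cadherin gene that SNAI1 and ZEB1 repress, had 18.8 and 12.4 CPM in HER2 L755S 1 and 2 and 17.5 and 17.8 CPM in HER2 WT 1 and 2. It was named after its values were seen. The lines overlapped, and the log2 fold change was -0.17 (SE 0.35; edgeR, Benjamini-Hochberg adjusted p = 0.998), with 0.11 within number 1 and -0.52 within number 2.

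TWIST1 (ENSG00000122691, chromosome 7, 19020991 to 19117672), a helix-loop-helix factor, was the one EMT factor on the list above 2 TPM. Its level was 15.5 and 22.9 CPM in HER2 L755S 1 and 2, against 22.6 and 16.7 CPM in HER2 WT 1 and 2. The higher library was number 2 in HER2 L755S and number 1 in HER2 WT, so the difference within number 1 was -0.55 and that within number 2 was 0.46. The fitted log2 fold change was -0.03 (95% interval -0.83 to 0.76; edgeR, Benjamini-Hochberg adjusted p = 0.999), and it turned positive without HER2 L755S 1 (0.22) or HER2 WT 1 (0.20). In TPM the order was not the same, with 18.1 and 17.4 in HER2 L755S and 31.2 and 16.9 in HER2 WT libraries, so that HER2 WT 1 alone stood high.

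VIM (ENSG00000026025, chromosome 10, 17228259 to 17237593) encodes the intermediate filament vimentin. Its level was 86.8 and 88.3 CPM in HER2 L755S 1 and 2 and 121 and 101 CPM in HER2 WT 1 and 2. Both HER2 L755S libraries were below both HER2 WT libraries, and in TPM this held as well, with 67.6 and 53.9 in HER2 L755S and 96.5 and 78.0 in HER2 WT libraries. The log2 fold change was -0.34 (95% interval -1.01 to 0.33; edgeR, Benjamini-Hochberg adjusted p = 0.905), with -0.48 within number 1 and -0.19 within number 2. A fold between 0.497 and 1.26 is within that interval. VIM-AS1 on the other strand had 124 and 202 counts in HER2 L755S and 172 and 200 counts in HER2 WT libraries, far fewer than the 2267 to 3919 counts of VIM.

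FN1 (ENSG00000115414, chromosome 2, 215360440 to 215436172) encodes the matrix glycoprotein fibronectin. Libraries HER2 L755S 1 and 2 had 215 and 171 CPM, against 107 and 170 CPM in HER2 WT 1 and 2. The lines did not overlap, but HER2 L755S 2 and HER2 WT 2 were nearly level. The log2 difference was 1.00 within number 1 and 0.01 within number 2. In the fit it was 0.48 (95% interval -0.25 to 1.21; edgeR, Benjamini-Hochberg adjusted p = 0.824), and it ran from 0.18 without HER2 WT 1 to 0.86 without HER2 WT 2. In TPM the distance was larger, with 91.3 and 80.6 in HER2 L755S and 45.0 and 64.2 in HER2 WT libraries, a ratio of 2.03 within number 1 and 1.26 within number 2.

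The scales also parted where length barely moved, since within number 2 the ratio of VIM was 0.876 in CPM and 0.691 in TPM. The source of that was not tested. For FN1, transcript length enters as well. RSEM, the quantification program, divides by a mean transcript length that it weights by the estimated abundance of each transcript. This length was 3243 and 2363 bases in HER2 L755S 1 and 2 and 3360 and 3588 bases in HER2 WT 1 and 2, so HER2 L755S 2 stood apart at the low end. The authors' table lists 27 transcripts of FN1. In GENCODE 29 they have 384 to 9171 bases, and 11 of them exceed 6000 bases. With the effective length of each gene in each library as an offset, the log2 fold change of FN1 was 0.84 and still missed the threshold (edgeR, Benjamini-Hochberg adjusted p = 0.377).

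Lengths of other members also moved between libraries, without separating the lines. For ZEB1 they were 3624 and 2268 bases in HER2 L755S and 2340 and 3051 bases in HER2 WT libraries, values that rest on the few reads given above. For TWIST1 they were 1317 and 1549 bases in HER2 L755S and 1173 and 1469 bases in HER2 WT, longer in the number 2 library of each line. For OVOL2 they were 1177 and 1113 bases in HER2 L755S and 1315 and 1143 bases in HER2 WT, shorter in the number 2 library of each line. The lengths of VIM (1859 to 1876 bases) and OVOL1 (2919 to 3034 bases) varied by less than 1.04 times between the shortest and the longest.

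**Figure D2:**
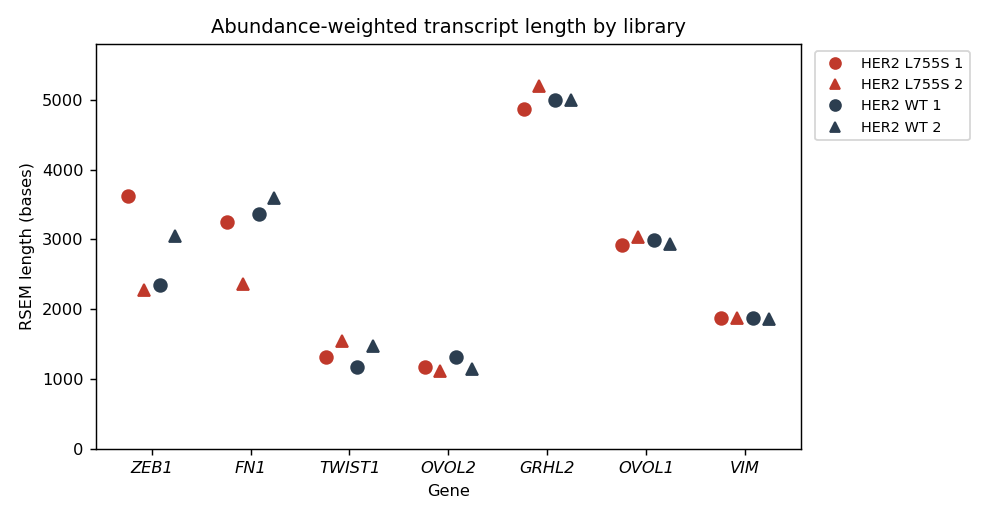
RSEM length in bases, the mean transcript length weighted by estimated abundance, for 7 of the genes in each library (red HER2 L755S, dark HER2 WT, circle library 1, triangle library 2). For FN1, HER2 L755S 2 lies at 2363 bases while the other libraries lie between 3243 and 3588 bases; VIM lies between 1859 and 1876 bases in all 4.

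Promoter sequences, from 250 bases before to 50 bases after the gene start, were taken from RefSeq (GRCh38.p14) and matched 4 of the 10 genes, ZEB1, ZEB2, VIM and FN1. SNAI1, SNAI2, TWIST1, OVOL1, OVOL2 and GRHL2 had no entry. Those of FN1 and VIM are shown as the pair of similar level whose differences between the lines had opposite signs, and that of ZEB1 as the nearly silent repressor. Capitals mark the E-box CAGGTG or its complement CACCTG, the site type that SNAI and ZEB factors bind, and the cAMP response element TGACGTCA, which reads the same on both strands.
FN1, chr2:215436019-215436318, minus strand: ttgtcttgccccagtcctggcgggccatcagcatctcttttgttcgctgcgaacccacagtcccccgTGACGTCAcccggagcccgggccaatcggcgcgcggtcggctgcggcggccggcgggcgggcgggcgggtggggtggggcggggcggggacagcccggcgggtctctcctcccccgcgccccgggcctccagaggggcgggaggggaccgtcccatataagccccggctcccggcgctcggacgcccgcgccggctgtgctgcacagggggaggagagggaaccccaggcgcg
VIM, chr10:17227991-17228290, plus strand: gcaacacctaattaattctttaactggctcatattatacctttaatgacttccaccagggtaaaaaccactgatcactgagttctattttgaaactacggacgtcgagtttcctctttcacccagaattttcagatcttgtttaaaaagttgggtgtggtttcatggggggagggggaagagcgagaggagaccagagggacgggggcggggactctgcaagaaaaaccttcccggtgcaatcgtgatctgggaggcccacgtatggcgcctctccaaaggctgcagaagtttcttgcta
ZEB1, chr10:31318167-31318466, plus strand: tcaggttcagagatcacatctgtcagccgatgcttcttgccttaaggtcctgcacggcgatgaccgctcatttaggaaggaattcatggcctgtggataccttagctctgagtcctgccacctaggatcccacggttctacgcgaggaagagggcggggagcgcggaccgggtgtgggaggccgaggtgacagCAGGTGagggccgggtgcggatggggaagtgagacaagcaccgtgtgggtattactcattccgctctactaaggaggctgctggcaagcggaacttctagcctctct

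The E-box was found once in the ZEB1 window, with its first base at -57 from the gene start, and not in the windows of ZEB2, VIM and FN1. Of 35116 RefSeq promoter windows of this length, 20.6% hold at least 1 such E-box. The cAMP response element was found in the FN1 window at -183 and in none of the other 3, and 1.85% of all windows hold it. The FN1 window has 76.7% G and C with 38 CpG pairs, and the VIM window 48.0% with 10 CpG pairs. These values hold for the annotated start that each window covers, and which start the RNA came from was not tested. A match describes the letters only and is not evidence of binding, and no match says only that the letters are not in this window.

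Of the gatekeepers, GRHL2 (ENSG00000083307, chromosome 8, 101492432 to 101669726), a grainyhead-like activator of junction genes, had the highest level. The HER2 L755S libraries had 78.0 and 78.1 CPM, against 90.3 and 121 CPM in the HER2 WT libraries. The lines did not overlap, and the HER2 L755S libraries were almost equal. The log2 fold change was -0.44 (95% interval -1.13 to 0.25; edgeR, Benjamini-Hochberg adjusted p = 0.834), with -0.21 within number 1 and -0.63 within number 2, and it was -0.20 without HER2 WT 2. An antisense gene in its span, AP001207.3, had 13 and 17 counts in HER2 L755S and 31 and 43 counts in HER2 WT libraries, beside 2004 to 3508 counts for GRHL2.

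OVOL1 (ENSG00000172818, chromosome 11, 65787022 to 65797219), a zinc finger repressor of EMT factor genes, had 5.88 and 5.84 CPM in HER2 L755S 1 and 2 and 13.4 and 6.65 CPM in HER2 WT 1 and 2. HER2 WT 1 alone stood high, and the other 3 libraries were close to each other. The log2 difference was thus -1.19 within number 1 and -0.19 within number 2. In the fit it was -0.78 (95% interval -1.71 to 0.16; edgeR, Benjamini-Hochberg adjusted p = 0.64), and it was -0.19 without HER2 WT 1.

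OVOL2 (ENSG00000125850, chromosome 20, 17956979 to 18059188), its paralog, had 14.2 and 9.19 CPM in HER2 L755S 1 and 2 and 19.6 and 12.1 CPM in HER2 WT 1 and 2. The lines overlapped, with the number 1 library the higher one in each. The log2 difference was nevertheless similar within the numbers, at -0.46 within number 1 and -0.39 within number 2. The fitted value was -0.43 (95% interval -1.29 to 0.42; edgeR, Benjamini-Hochberg adjusted p = 0.908), and it ran from -0.78 without HER2 L755S 1 to -0.05 without HER2 WT 1. The annotated span of OVOL2 overlaps SNX5 and MGME1, which had 2330 to 2961 and 1052 to 1357 counts per library, against 236 to 633 counts for OVOL2, so the value of OVOL2 is uncertain where reads of these genes could be divided.

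Read together, the 8 tested genes had a median log2 fold change of -0.39, with -0.47 within number 1 and -0.23 within number 2, while the median of all tested genes was 0.00. In CPM the libraries of the lines did not overlap for 5 of the 8, with HER2 L755S below for SNAI1, VIM, OVOL1 and GRHL2 and above for FN1. Of all tested genes, 36.2% did not overlap, 16.9% with HER2 L755S above and 19.3% with it below. The gatekeepers and the mesenchymal gene VIM thus lay on the same side of 0, and FN1 on the other, with no member past the threshold.

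**Figure D3:**
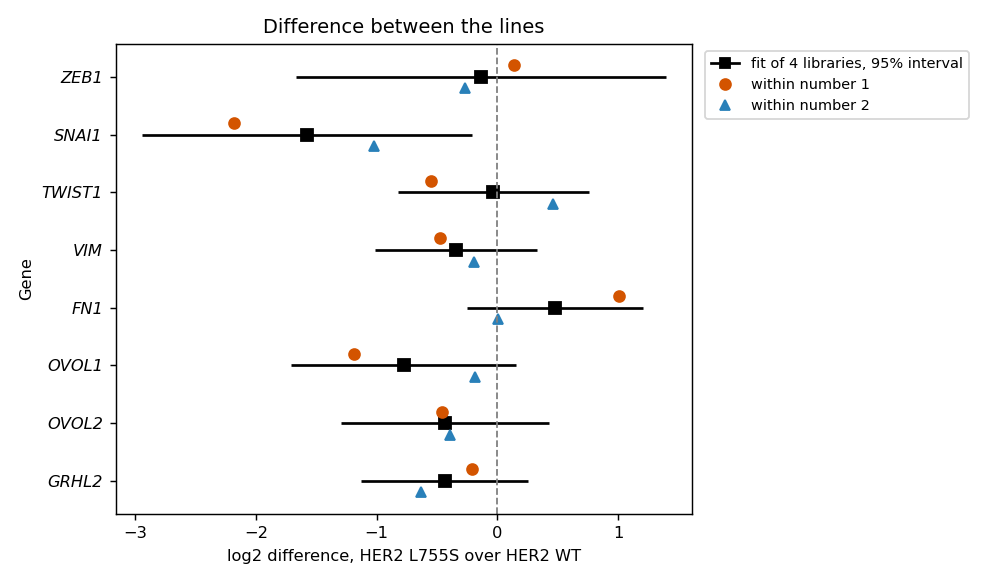
Log2 difference, HER2 L755S over HER2 WT, for the 8 tested genes: squares with bars are the fit of 4 libraries with its 95% interval, circles the difference within number 1 and triangles that within number 2. The interval of SNAI1 (-2.94 to -0.21) is the only one that leaves out 0, and TWIST1 has opposite signs within the numbers (-0.55 and 0.46).

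Since no member was called, the gene with the largest absolute log2 fold change among those with a mean of at least 1 CPM, OVOL1, was used to look for genes of like profile. Among 11181 genes with at least 5 CPM, the 3 nearest over the 4 libraries, by the root mean square difference of centred log2 CPM, were SULT2B1 (0.0678), GTSE1 (0.0847) and BIRC5 (0.0855). SULT2B1, a sulfotransferase gene, had 5.30 and 4.91 CPM in HER2 L755S libraries and 11.9 and 6.37 CPM in HER2 WT libraries. BIRC5, which encodes the mitotic protein survivin, had 64.1 and 64.6 CPM in HER2 L755S libraries and 132 and 64.3 CPM in HER2 WT libraries. Like OVOL1, each was high in HER2 WT 1 only. With 4 libraries, such likeness is a description and no test.

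The wider network was described from lists by function. Where a library is left out below, one line is down to 1 library, which is assumed to vary like the other line, so a call gained that way carries no check on the spread of that line. None of the 10 tested genes among 19 other EMT transcription factor genes was called by edgeR, and 2 had an unadjusted p under 0.05, both higher in HER2 L755S libraries. They were SOX9, with 9.98 and 9.93 CPM in HER2 L755S and 4.05 and 2.79 CPM in HER2 WT, and the homeobox gene MSX2, with 47.7 and 40.7 CPM in HER2 L755S and 20.6 and 15.0 CPM in HER2 WT. Both were named after their values were seen. Their log2 fold changes were 1.54 and 1.31 (edgeR, Benjamini-Hochberg adjusted p = 0.092 and 0.0942), and DESeq2 called both (adjusted p = 0.0133 and 0.00952). Without a filter on low counts edgeR called both (adjusted p = 0.0227 and 0.0299), as it did with the replicate number as a block (0.00161 and 0.000216). TWIST2, PRRX1, PRRX2, FOXC2, TCF4, FOXQ1, ETS1 and RUNX2 had at most 2 counts in any library. The most abundant of the 10 by TPM was TCF3, a helix-loop-helix gene, with 128 and 97.8 CPM in HER2 L755S and 144 and 83.6 CPM in HER2 WT libraries (log2 fold change -0.01). The median of the 10 was 0.49.

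None of the 14 tested genes among 16 other gatekeepers was called by edgeR at the main settings. At an unadjusted p under 0.05, 1 was higher (GRHL3) and 3 were lower (TFCP2L1, EHF and ELF3). The median of the 14 was 0.03. Of the grainyhead paralogs of GRHL2, GRHL3 had 17.6 and 10.4 CPM in HER2 L755S and 5.68 and 5.54 CPM in HER2 WT libraries, and GRHL1 had 20.7 and 20.9 CPM in HER2 L755S and 22.6 and 21.1 CPM in HER2 WT libraries. The log2 fold change of GRHL3 was 1.32 and that of GRHL1 was -0.07 (edgeR, Benjamini-Hochberg adjusted p = 0.15 and 0.998). DESeq2 called GRHL3 (adjusted p = 0.0447), as did edgeR with the replicate number as a block (0.00377). The log2 fold change of GRHL3 was 1.64 when HER2 L755S 2, the lower library of its line, was left out. TFCP2L1, a more distant relative, had 18.6 and 5.10 CPM in HER2 L755S and 38.2 and 38.8 CPM in HER2 WT libraries, a log2 fold change of -1.70 (edgeR, Benjamini-Hochberg adjusted p = 0.153). DESeq2 called it (adjusted p = 0.0259), as did edgeR without a filter on low counts (0.00172) and with the replicate number as a block (0.000652). With HER2 L755S 1, HER2 WT 1 or HER2 WT 2 left out, its log2 fold change was -2.91, -1.71 and -1.68. The value furthest from 0 came from the fit with HER2 L755S 2 as the only library of its line. EHF had 11 and 12 counts in HER2 L755S and 43 and 70 counts in HER2 WT libraries, a log2 fold change of -2.14. Its edgeR adjusted p was 0.127, 0.0225 without a filter and 0.0173 with the block. ELF3 had 7.01 and 5.22 CPM in HER2 L755S and 12.9 and 10.5 CPM in HER2 WT libraries, a log2 fold change of -0.93. Its edgeR adjusted p was 0.372, and 0.0212 with the block. GRHL1, GRHL3, TFCP2L1, EHF and ELF3 were named after their values were seen. TFAP2A, an AP-2 factor gene and the most abundant of the list by TPM, had 334 and 309 CPM in HER2 L755S and 243 and 206 CPM in HER2 WT libraries (log2 fold change 0.52; edgeR, Benjamini-Hochberg adjusted p = 0.67). The epithelial splicing regulator gene ESRP1 had 115 and 142 CPM in HER2 L755S and 158 and 164 CPM in HER2 WT libraries (log2 fold change -0.32).

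Of 37 epithelial junction and polarity genes in the tables, 36 were tested. None was called by edgeR at the main settings or by DESeq2, with 3 higher and 2 lower at an unadjusted edgeR p under 0.05. Their median was 0.10. The most abundant by TPM were SPINT2, JUP and EPCAM. SPINT2, a serine protease inhibitor gene, had 675 and 615 CPM in HER2 L755S and 627 and 466 CPM in HER2 WT libraries (log2 fold change 0.24). EPCAM, an epithelial adhesion gene, had 299 and 492 CPM in HER2 L755S and 255 and 298 CPM in HER2 WT libraries, and JUP, which encodes plakoglobin, had 1204 and 667 CPM in HER2 L755S and 1147 and 708 CPM in HER2 WT libraries. CLDN3, a claudin gene named after its values were seen, had a log2 fold change of 1.81 when HER2 WT 1 was left out. With all 4 libraries it was -0.12. The fit without HER2 WT 1 set 66.6 and 26.1 CPM in HER2 L755S against 13.2 CPM in HER2 WT 2 alone. It had no measure of the spread in HER2 WT, where HER2 WT 1 had 87.6 CPM.

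Genes of the mesenchymal product list were called in both directions. Of 27 tested among 40, 3 rose and 2 fell in HER2 L755S cells, beside 0.738% of all tested genes higher and 0.949% lower. The list was chosen with earlier results of these data known, so these counts are no test of an excess. POSTN (periostin), COL5A1 (a fibrillar collagen chain) and S100A4 rose, with log2 fold changes of 7.91, 2.70 and 2.12 (edgeR, Benjamini-Hochberg adjusted p = 0.000205, 0.0111 and 0.0317). POSTN had 24.4 and 25.0 CPM in HER2 L755S libraries, against 0.0618 and 0.138 CPM in HER2 WT libraries, where it rested on 2 and 4 counts. COL5A1 had 7.56 and 8.88 CPM in HER2 L755S libraries, against 1.45 and 1.07 CPM in HER2 WT libraries. MSN, which encodes the membrane linker moesin, fell to 2.74 and 0.935 CPM in HER2 L755S libraries, against 21.1 and 27.5 CPM in HER2 WT libraries (log2 fold change -3.72, SE 0.51; edgeR, Benjamini-Hochberg adjusted p = 0.00563). BGN, which encodes the matrix proteoglycan biglycan, fell to 1.78 and 0.312 CPM in HER2 L755S libraries, against 12.6 and 7.20 CPM in HER2 WT libraries (log2 fold change -3.22, SE 0.67; edgeR, Benjamini-Hochberg adjusted p = 0.0374). S100A4, named after its values were seen, had 6.94 and 7.36 CPM in HER2 L755S and 1.73 and 1.55 CPM in HER2 WT libraries.

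S100A4 lost its call when HER2 WT 2 was left out and with the length offset (edgeR, Benjamini-Hochberg adjusted p = 0.0512 and 0.0537), and BGN lost its call with the length offset (0.0673). Over all 13 alternatives the adjusted p ran from 0.000415 to 0.0537 for S100A4 and from 2.17e-08 to 0.0673 for BGN. AXL and DAB2, named after their values were seen, were called lower by DESeq2 (adjusted p = 0.00411 and 0.00711). With all 4 libraries, edgeR called both without a filter on low counts (adjusted p = 0.0025 and 0.00145). It also called both with the replicate number as a block (0.000762 and 0.00309), but not at the main settings (0.0641 and 0.0648). The median of the 27 was -0.41, with -0.36 within number 1 and -0.76 within number 2. The most abundant members by TPM were CD44, COL1A1 and CDH2. CD44 had 67.6 and 62.3 CPM in HER2 L755S and 112 and 92.6 CPM in HER2 WT libraries (log2 fold change -0.66; edgeR, Benjamini-Hochberg adjusted p = 0.507). CDH2, the N-cadherin gene, had 53.5 and 82.2 CPM in HER2 L755S and 33.2 and 59.9 CPM in HER2 WT libraries (log2 fold change 0.54; edgeR, Benjamini-Hochberg adjusted p = 0.824).

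**Figure D4:**
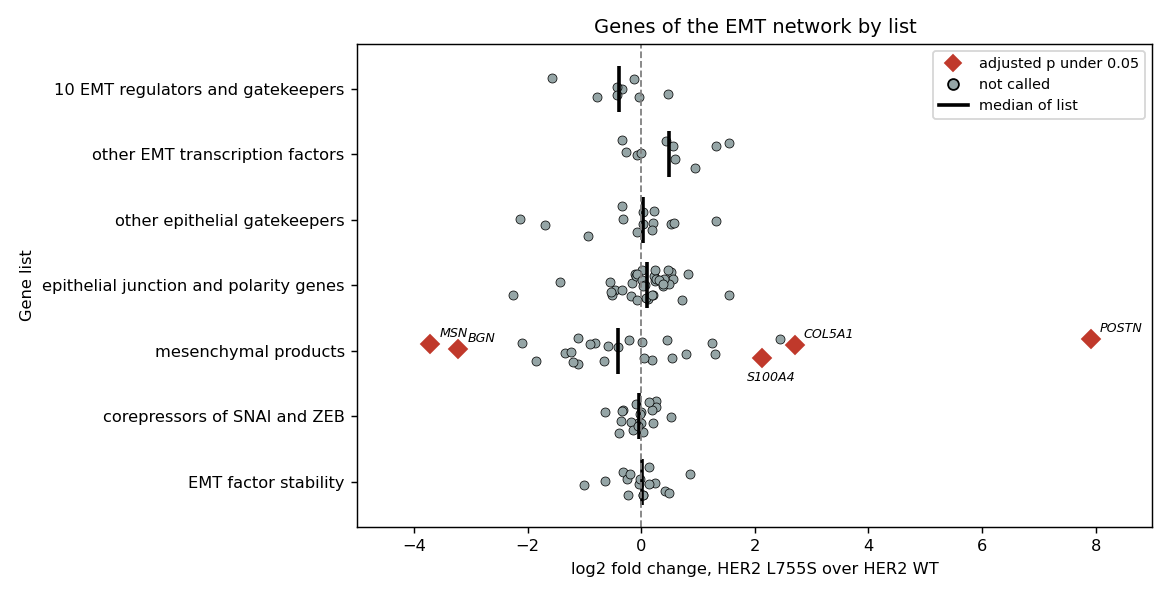
Log2 fold change, HER2 L755S over HER2 WT, of each tested gene of 7 lists; diamonds are genes with an adjusted p under 0.05, circles the others, and black ticks the median of a list. The 5 called genes all belong to the mesenchymal products, from -3.72 (MSN) to 7.91 (POSTN), and the 8 tested EMT regulators and gatekeepers lie between -1.58 and 0.48.

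No gene was called by edgeR or DESeq2 among 20 corepressors of SNAI and ZEB factors, such as HDAC1 and HDAC2 (median -0.03), of which 0 had an unadjusted edgeR p under 0.05. Among 16 regulators of EMT factor stability (median 0.01) edgeR at the main settings and DESeq2 called none, and 1 had an unadjusted edgeR p under 0.05. That gene was PAK1, a kinase that phosphorylates Snail and the most abundant gene of its list, with 634 and 613 CPM in HER2 L755S and 1121 and 1405 CPM in HER2 WT libraries (log2 fold change -1.02; edgeR, Benjamini-Hochberg adjusted p = 0.133, and 0.0397 without a filter on low counts). Of the microRNA loci that restrain ZEB1, only the host gene MIR205HG passed the filter, with 0.855 and 0.818 CPM in HER2 L755S and 0.494 and 0.689 CPM in HER2 WT libraries. Precursor genes of the miR-200 family were at 0 in these poly(A)-selected libraries, which do not measure mature microRNAs.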

How the data were processed

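Cells were grown to 70% confluence before estrogen was withdrawn, and 250 ng of RNA per sample went into poly(A)-selected TruSeq libraries, per the labels' protocols. Per the file headers, the authors' tables are RSEM output with an expected count per gene (an estimate that can hold fractions of a read), TPM, FPKM and transcript lengths. The deposited FPKM values were not analysed. STAR, edgeR and GRCh38 appear in the submitters' processing notes, without version or role. The deposited replicate 2 tables carry the word merged, with no explanation.

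Expected counts were rounded. Genes passing filterByExpr (16538 of 60675) were scaled with TMM and tested in edgeR 4.0.16 by quasi-likelihood, under R 4.3.3 (two-sided, Benjamini-Hochberg adjustment over all tested genes, threshold 0.05), with no term for the replicate number. The standard error was the log2 fold change divided by the root of the F statistic, and 95% intervals used the test's degrees of freedom. Differences within a number are on log2 CPM with a prior count of 0.5. Alternatives used DESeq2 1.42.0, limma 3.58.1 (voom), other scaling and filters, a replicate block and leaving out each library. The length offset and a run without mitochondrial genes were chosen after seeing the data. Members and lists were chosen with earlier results of these data known. Named genes were all members, called list genes (the 4 largest where more were called), up to 3 of the most abundant genes of a list by TPM, and others marked as chosen after their values were seen. Of the list symbols, MIR200CHG and TBXT were not matched, and PATJ and PALS1 were matched by older symbols. Gene positions and transcript lengths are from GENCODE 29.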

Additional observations from a re-analysis of the deposited data

How the results depend on the processing

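No member was called in any of the 13 alternatives. The signs of SNAI1, VIM, FN1, OVOL1, OVOL2 and GRHL2 held in every alternative that could be fitted, and a filter of at least 50 counts removed SNAI1 and ZEB1. The log2 fold change of SNAI1 ran from -2.10 to -1.18. With a library left out, that of ZEB1 ran from -0.64 to 0.64 and that of TWIST1 from -0.35 to 0.22. ZEB1 was reversed without HER2 L755S 1 (0.23) and HER2 WT 2 (0.64), and TWIST1 without HER2 L755S 1 (0.22) and HER2 WT 1 (0.20).

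The counts depended on the setting, and the cause was not tested. The fit of 4 libraries called 122 genes higher and 157 lower. Without a filter edgeR called 328 and 431, DESeq2 called 276 and 309, and the length offset left 79 and 84. Leaving out each library, which leaves 1 library in a line and borrows its spread from the other line, gave 160 to 220 higher and 184 to 328 lower genes. Of mesenchymal products, 2 were lower in the fit of 4 libraries, 4 without a filter, 4 with DESeq2, 1 with the length offset and 2 to 5 with a library left out, when 3 to 4 were higher. The calls with a library left out include COL1A2 and COL3A1, named after their values were seen. Both lay mainly in library 2 of each line. COL1A2 had 6 and 49 counts in HER2 L755S and 0 and 45 in HER2 WT. COL3A1 had 0 and 32 counts in HER2 L755S and 1 and 53 in HER2 WT. The log2 fold change of COL1A2 was 7.96 without HER2 WT 2 and 0.45 with all 4 libraries. That of COL3A1 was -7.80 without HER2 L755S 2 and -0.58 with all 4. Such ranges do not show stability. Other EMT factors had 2 higher calls without a filter and 2 with DESeq2. Other gatekeepers had 2 lower calls without a filter, 1 higher and 1 lower with DESeq2, and 0 to 1 in each direction with a library left out. Junction genes had 0 to 1 higher calls with a library left out, and the stability list had 1 lower call without a filter.

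What the replicate number stands for is not stated. In both lines library 2 had the higher mitochondrial share, and immediate early genes summed to 479 TPM in HER2 L755S 1 and 453 TPM in HER2 WT 1, against 107 TPM in HER2 L755S 2 and 71.8 TPM in HER2 WT 2. Across 16538 genes, which are not independent, the difference of number 1 and number 2 had r = 0.42 between the lines. With the replicate number as a block, 725 genes were called higher and 1018 lower, and no member (lowest adjusted p 0.0985, SNAI1), while 4 of 8 members had an unadjusted p under 0.05, as had 23% of all tested genes. The block gave 2 higher calls of other EMT factors, 1 higher and 3 lower of other gatekeepers, 3 higher and 1 lower of junction genes, 9 lower of mesenchymal products and 1 lower of the stability list (PAK1, edgeR adjusted p 0.00465). CD44 was among the mesenchymal products called with the block (edgeR adjusted p 0.0302).

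At 12 to 26 counts for ZEB1 and 9 to 47 for SNAI1, depth limits what can be seen of both. With 2 libraries a line, the 95% intervals of the other members reach folds from 0.306 (OVOL1) to 2.31 (FN1).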
